A study of Homo sapiens with 48 samples.

Results

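Fibroblasts carrying a GLIS3 knockout guide were compared with control fibroblasts after 12 h of TGF-β and IL-1β, at 10 ng/ml each. The comparison was chosen by its population and time labels and rests on 6 of the 48 RNA-seq libraries of the series, 3 per population. Both populations came from IL11mNG fibroblasts, a clone of the immortalized human skin fibroblast line CRL-4001 in which mNeonGreen, a green fluorescent protein, was inserted at IL11. Both expressed Cas9 and were selected in bulk with puromycin and blasticidin. GLIS3 CRISPRko cells received 1 lentiviral GLIS3 guide and control CRISPRko cells 1 lentiviral control guide, so the effect of the guide and any other difference between the 2 selected populations cannot be told apart. The remaining libraries hold the same populations at 0, 6 and 24 h of cytokines (18 libraries) and a CRISPRa arm with Cas9-VP64 (24 libraries). The study states in general that its culture experiments used independent biological replicates, and the labels do not say how the 3 libraries of a group were grown, so the p-values measure the spread between these libraries.

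GLIS3 is a zinc-finger transcription factor of the GLI family that binds G-rich DNA and can activate or repress transcription. It is best known in the pancreatic β-cell, thyroid and kidney, and was studied here in fibroblasts activated by inflammation. TGF-β signals through SMAD proteins to matrix genes, and IL-1β signals through NF-κB and AP-1 to cytokines, chemokines and matrix-degrading enzymes. IL-11 is a cytokine of the IL-6 family that fibroblasts secrete when TGF-β is present.

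The guides that the study lists for GLIS3 and control CRISPRko are shown with the genomic bases that follow them, the PAM that Cas9 needs, in capitals.
GLIS3 CRISPRko guide: ccacatcgaccagcgcaaagGGG
control CRISPRko guide: gcagaccaattacaacacacTGG
The GLIS3 guide had 1 exact match beside an NGG PAM in GRCh38, at chr9:4117887-4117906 on the minus strand. This site lies within exon 4 of 11 of GLIS3 (GENCODE release 44, transcript ENST00000381971.8), in coding sequence, with the predicted cut at codon 530 of 930. The study describes its control guide as non-targeting, and whether the listed one was used in these cells is not stated. The listed control guide also had 1 exact match beside an NGG PAM, at chr12:123325581-123325600 on the plus strand. Of its 20 bases, 19 lie in exon 15 of 32 of SBNO1 (transcript ENST00000602398.3), in coding sequence at the edge of that exon. Whether that site was cut was not tested. SBNO1, singled out after this match was found, was at 35.3, 28.5 and 38.1 CPM in the control libraries and 34.7, 32.8 and 31.6 CPM in the GLIS3 CRISPRko libraries, where CPM is the count scaled to the library size after TMM normalization. Its groups overlapped, with a log2 fold change of -0.03 (SE 0.18). No site with up to 3 mismatches to either guide lay within a gene called below.

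The control libraries held 2614219 to 3108805 estimated counts and the GLIS3 CRISPRko libraries 4144332 to 7105884, so depth differed with the population and its part in the results was not tested beyond thinning all 6 libraries to the smallest total. At 6 h the order of depth was the reverse, with 2963560 to 3479573 counts in GLIS3 CRISPRko and 4659152 to 5661982 in control. Log2 CPM correlated at r = 0.969 to 0.973 between GLIS3 CRISPRko libraries, 0.957 to 0.959 between controls and 0.958 to 0.965 across populations, over genes. The label of fibroblasts was checked against 15 general fibroblast markers, which do not read skin origin. None was at 0 in all 6 libraries, although TWIST1 stayed under 1 TPM (a level scaled to transcript length and library size). The summed level of the 15 was 25180 to 27540 TPM in control and 24610 to 26980 TPM in GLIS3 CRISPRko. VIM made up most of it, at 18020 to 20540 TPM over the 6 libraries. Of 19 markers of epithelial, immune, endothelial, melanocyte and mural cells, 8 were at 0 in all 6 libraries (EPCAM, KRT5, PTPRC, LYZ, VWF, CDH5, KDR and MLANA). KRT18, a keratin of simple epithelia, made up most of the rest, and the summed level was 650.6 to 933.2 TPM in control and 861.5 to 1069 TPM in GLIS3 CRISPRko.

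GLIS3 mRNA was low in every library at 12 h. It was counted 9, 11 and 6 times in the control libraries (3.31, 3.60 and 2.18 CPM) and 9, 6 and 6 times in the GLIS3 CRISPRko libraries (1.45, 0.933 and 1.57 CPM). The groups did not overlap, and the level was lower in GLIS3 CRISPRko by a log2 fold change of -1.21 (SE 0.48), which did not pass the test (edgeR quasi-likelihood test, adjusted p = 0.507 over 10962 genes). The same difference averaged over 0, 6 and 24 h was -1.84 (SE 0.29, edgeR adjusted p = 0.000232). RNA counts do not read the edit itself, which changes the coding sequence. The 5 tested neighbours of GLIS3 on chromosome 9 had log2 fold changes of -0.27 to 0.05 at 12 h and none was called.

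At 12 h, 9 of 10962 genes passed an adjusted p of 0.05 in edgeR's quasi-likelihood test, and a gene is named as called where it passed this test unless DESeq2 is named. Of these, 6 were higher in GLIS3 CRISPRko (0.0547% of genes tested) and 3 were lower (0.0274%). The higher genes encode a monooxygenase-like protein (MOXD1), matrix and matrix-receptor proteins (COL8A1 and ITGA11), secreted or protease-inhibitor proteins (ESM1 and SERPINB7) and a membrane protein (EMP2). The lower genes encode a kinase (NUAK2), an enzyme of serine synthesis (PHGDH) and a secreted WNT modulator (SFRP1). All 9 had 3 libraries of one population above all 3 of the other, which 7.69% of all genes tested showed in the higher direction and 7.49% in the lower. At an unadjusted p of 0.05, 439 genes were higher (4.0%) and 403 lower (3.68%). DESeq2, run on the same 24 libraries, called 43 genes (30 higher and 13 lower), among them 8 of the 9, and gave the other one, ITGA11, no adjusted p.

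**Figure D1:**
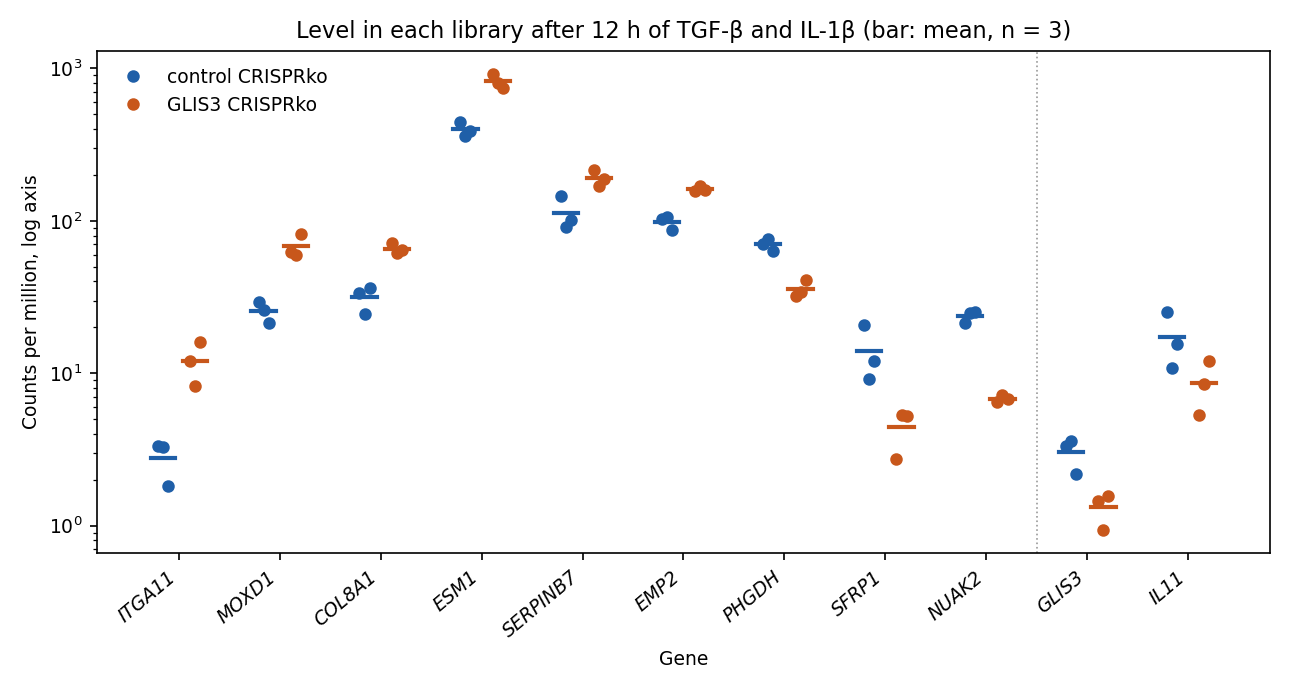
CPM (log axis) in each of the 6 libraries at 12 h for the 9 genes called and, right of the dotted line, for GLIS3 and IL11, which were not. Points are libraries and bars are means of 3. ESM1 lies at 363 to 447 CPM in control and 740.0 to 926 CPM in GLIS3 CRISPRko, and IL11 is the only gene shown whose groups overlap.

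MOXD1 (chr6:132296055-132401475, minus strand) encodes a homologue of dopamine β-hydroxylase. It was at 29.4, 26.2 and 21.4 CPM in control and 62.6, 60.0 and 82.0 CPM in GLIS3 CRISPRko. Every GLIS3 CRISPRko library was above every control library, and the gene rose by a log2 fold change of 1.40 (SE 0.18, n = 3 per group, edgeR adjusted p = 8.64e-05). It stayed called when any 1 of the 6 libraries was left out.

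COL8A1 (chr3:99638475-99799226, plus strand) encodes a chain of type VIII collagen, a short-chain collagen of vessel walls and basement membranes. Its levels were 33.5, 24.5 and 36.3 CPM in control against 71.6, 61.4 and 64.0 CPM in GLIS3 CRISPRko. The gene rose by 1.07 on the log2 scale (SE 0.17, edgeR adjusted p = 0.00187), and of the 6 fits that left out a library it lost its call in the one without control replicate 2 (edgeR adjusted p = 0.0514). ITGA11 (chr15:68296532-68432163, minus strand) encodes the α11 chain of a collagen-binding integrin of fibroblasts. It was at 3.31, 3.27 and 1.81 CPM in control and 12.1, 8.24 and 15.9 CPM in GLIS3 CRISPRko, from 5 to 10 counts per control library and 53 to 75 per GLIS3 CRISPRko library. Its log2 fold change of 2.08 (SE 0.35, edgeR adjusted p = 0.00401) was the largest among the 6 genes that rose, and rests on few control counts. Without control replicate 3 or GLIS3 CRISPRko replicate 3 its edgeR adjusted p was 0.0839 and 0.0558.

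ESM1 (chr5:54977867-55022671, minus strand) encodes endocan, a secreted proteoglycan. It was at 447, 363 and 391 CPM in control and 926, 808 and 740.0 CPM in GLIS3 CRISPRko. Per transcript length it was the most abundant of the 9 genes, at 270 to 361 TPM in control and 526 to 609 TPM in GLIS3 CRISPRko. It rose by 1.04 on the log2 scale (SE 0.21, edgeR adjusted p = 0.0310), and lost the call whichever single library was left out (edgeR adjusted p 0.0658 to 0.256). SERPINB7 (chr18:63752935-63805376, plus strand) encodes an intracellular serine-protease inhibitor. It was at 146, 90.9 and 101 CPM in control and 217, 170.2 and 188 CPM in GLIS3 CRISPRko, a log2 fold change of 0.77 (SE 0.15, edgeR adjusted p = 0.0277). It lost the call without control replicate 2 or 3 or GLIS3 CRISPRko replicate 1 or 3 (edgeR adjusted p 0.0688 to 0.282). Neither gene had overlapping groups.

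EMP2 (chr16:10528422-10580632, minus strand) encodes a tetraspan membrane protein. It was at 103, 106 and 86.7 CPM in control and 156, 169.7 and 160.3 CPM in GLIS3 CRISPRko, with a log2 fold change of 0.72 (SE 0.13, edgeR adjusted p = 0.0124). The spread within each population was small, with an SD of 10.4 and 7.0 CPM. Without control replicate 3, GLIS3 CRISPRko replicate 2 or GLIS3 CRISPRko replicate 3 the edgeR adjusted p was 0.226, 0.0755 and 0.0617.

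NUAK2 (chr1:205302063-205321745, minus strand) encodes a kinase of the AMPK-related family that acts on actomyosin contraction, and is a known target of YAP and TEAD. It was at 21.3, 24.9 and 25.4 CPM in control and 6.45, 7.16 and 6.79 CPM in GLIS3 CRISPRko. The groups lay far apart relative to their spread (SD 2.20 and 0.351 CPM), and NUAK2 fell by 1.81 on the log2 scale (SE 0.24, edgeR adjusted p = 8.64e-05). It was the only gene called under all 14 alternative analyses run for single genes.

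PHGDH (chr1:119648411-119744218, plus strand) encodes the first enzyme of serine synthesis. It was at 70.2, 76.2 and 63.8 CPM in control and 32.3, 34.2 and 40.7 CPM in GLIS3 CRISPRko. It fell by 0.98 on the log2 scale (SE 0.18, edgeR adjusted p = 0.0122), and lost the call without control replicate 2 (edgeR adjusted p = 0.0911), GLIS3 CRISPRko replicate 1 (0.150) or GLIS3 CRISPRko replicate 2 (0.0755). SFRP1, on chromosome 8, encodes a secreted frizzled-related protein that binds WNT ligands. It was at 20.6, 9.16 and 12.0 CPM in control and 2.74, 5.29 and 5.22 CPM in GLIS3 CRISPRko, from 28 to 56 and 17 to 34 counts. It fell by 1.66 on the log2 scale (SE 0.34, edgeR adjusted p = 0.0310). Of the 6 fits that left out a library, it kept the call only in the fit without control replicate 2 (edgeR adjusted p 0.0688 to 0.314 in the others), and after thinning to 1 depth its edgeR adjusted p was 0.126.

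**Figure D2:**
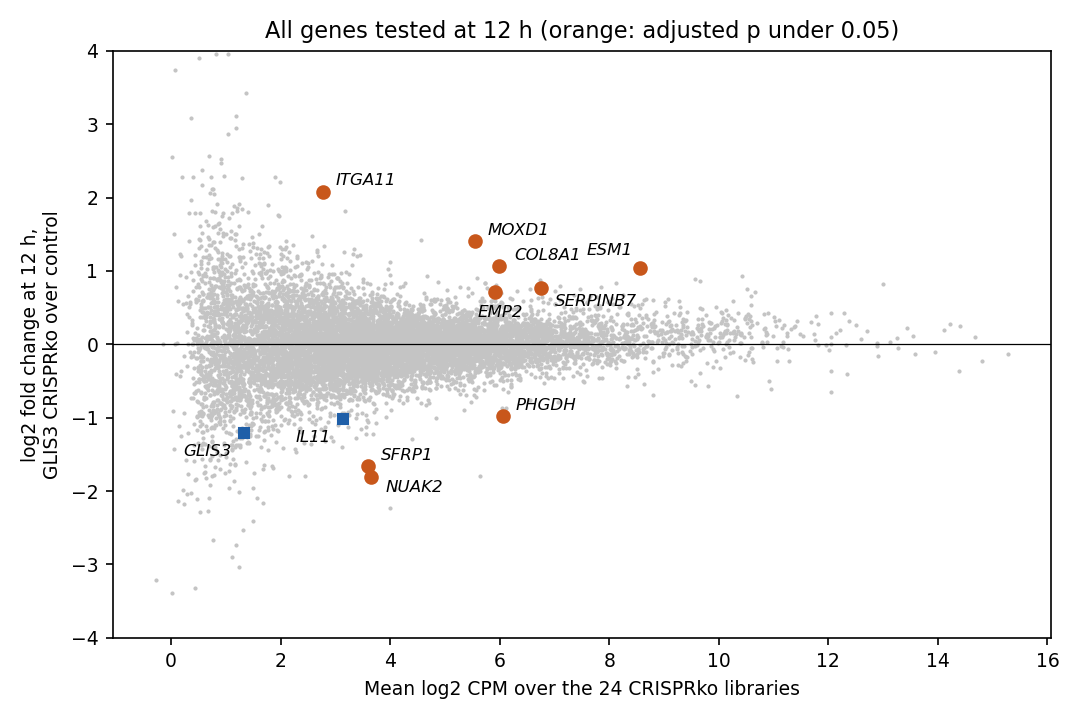
Log2 fold change at 12 h against the mean log2 CPM for the genes tested. Orange circles are the 9 genes with an adjusted p under 0.05, blue squares are GLIS3 and IL11, and 18 genes with a log2 fold change beyond 4 in either direction lie outside the axis. The scatter is widest at low CPM, where GLIS3 lies, and the called genes sit at its edges.

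The promoters of the called genes were searched for 3 motifs within 250 bases before the transcription start, on both strands (RefSeq, GRCh38.p14). A window was found for 7 of the 9 genes. The GLIS motif TGGGGGGT was in none of the 7 (1.2% of 27305 promoters hold it), the AP-1 motif TGANTCA in none (6.6%) and the TEAD motif GGAATG in 1 (11.9%). The 1 was NUAK2, whose window at chr1:205321746-205321995 holds the TEAD motif at 2 places, in capitals, starting 197 bases (minus strand) and 18 bases (plus strand) before the start. The window of IL11 (chr19:55370464-55370713), the gene that carries the reporter, is shown for comparison, with an AP-1 motif starting 96 bases and a GLIS motif (minus strand) starting 25 bases before the start in capitals. The motifs shown do not overlap each other, and a match is not evidence of binding.
NUAK2 promoter: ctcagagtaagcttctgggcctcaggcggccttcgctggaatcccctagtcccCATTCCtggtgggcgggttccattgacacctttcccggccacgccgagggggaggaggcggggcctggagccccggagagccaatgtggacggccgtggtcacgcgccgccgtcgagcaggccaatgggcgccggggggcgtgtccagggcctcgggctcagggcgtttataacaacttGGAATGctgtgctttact
IL11 promoter: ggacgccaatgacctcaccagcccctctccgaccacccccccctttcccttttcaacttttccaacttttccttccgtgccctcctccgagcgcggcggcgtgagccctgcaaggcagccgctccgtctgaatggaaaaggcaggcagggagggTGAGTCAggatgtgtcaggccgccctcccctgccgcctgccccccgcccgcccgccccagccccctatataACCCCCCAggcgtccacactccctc

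The cytokines themselves moved most of these genes. Between 0 and 12 h in control cells, 1243 genes rose (11.3% of genes tested) and 907 fell (8.27%), and 7 of the 9 genes were among them. ESM1, EMP2, NUAK2 and SERPINB7 rose with cytokines in control, by 4.91 (SE 0.26), 2.54 (SE 0.15), 2.02 (SE 0.24) and 0.87 (SE 0.16) on the log2 scale. COL8A1, SFRP1 and MOXD1 fell by 1.04 (SE 0.17), 0.87 (SE 0.29) and 0.55 (SE 0.18). The change in ITGA11 was -0.82 (SE 0.37) and that in PHGDH -0.25 (SE 0.17), neither of them called. The 12 h controls enter both comparisons, so these values are given side by side only. After 12 h of cytokines, GLIS3 CRISPRko cells held more ESM1, EMP2 and SERPINB7 mRNA and less NUAK2 mRNA than control cells. All 4 genes rose with cytokines in control. At 0 h, without cytokines, 5 of the 9 genes were called in the same direction. Among these were SERPINB7 at 0.91 (SE 0.15, edgeR adjusted p = 0.00587) and NUAK2 at -1.43 (SE 0.29, edgeR adjusted p = 0.0185). EMP2 was not called at 0 h, at 0.01 (SE 0.15).

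Of the 9 genes, 8 were also called in the same direction for the difference averaged over 0, 6 and 24 h. That difference takes no value from the 12 h libraries, but the gene filter, normalization and estimate of spread came from all 24 CRISPRko libraries. It called 165 genes higher (1.51%) and 85 lower (0.775%). SERPINB7 and MOXD1 led that comparison, at 1.12 (SE 0.09, edgeR adjusted p = 1.05e-09) and 1.17 (SE 0.10, edgeR adjusted p = 3.02e-09) on the log2 scale. MOXD1 held at 21.5 to 37.6 CPM (group means) in control and 50.3 to 72.9 CPM in GLIS3 CRISPRko across the 4 times. NUAK2 averaged -0.82 (SE 0.15, edgeR adjusted p = 0.000849) and had its smallest difference at 24 h, -0.42 (SE 0.22). In control it was at 5.95 ± 1.49 CPM (SD, n = 3) at 0 h, 18 ± 2.36 at 6 h, 23.9 ± 2.20 at 12 h and 18.9 ± 3.55 at 24 h. In GLIS3 CRISPRko it was at 2.20 ± 0.890, 11.7 ± 0.579, 6.80 ± 0.351 and 14 ± 2.03 CPM at the same times, so that the 12 h level was below both the 6 h and the 24 h level in that population.

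EMP2 was the exception. It averaged 0.12 (SE 0.08, edgeR adjusted p = 0.564) over the other times, with 0.01 (SE 0.15) at 0 h and -0.01 (SE 0.14) at 6 h. It peaked at 12 h in both populations, at 98.5 ± 10.4 CPM in control and 162 ± 7.0 CPM in GLIS3 CRISPRko. Its difference at 12 h exceeded that at the other times by 0.60 on the log2 scale (SE 0.16), which did not pass the test (edgeR adjusted p = 0.670). No gene passed that test of 12 h against the other times in edgeR, in DESeq2 or in limma, with 652 genes at an unadjusted p under 0.05 in edgeR and a smallest edgeR adjusted p of 0.292. Without the filter on low counts 37 genes passed it.

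**Figure D3:**
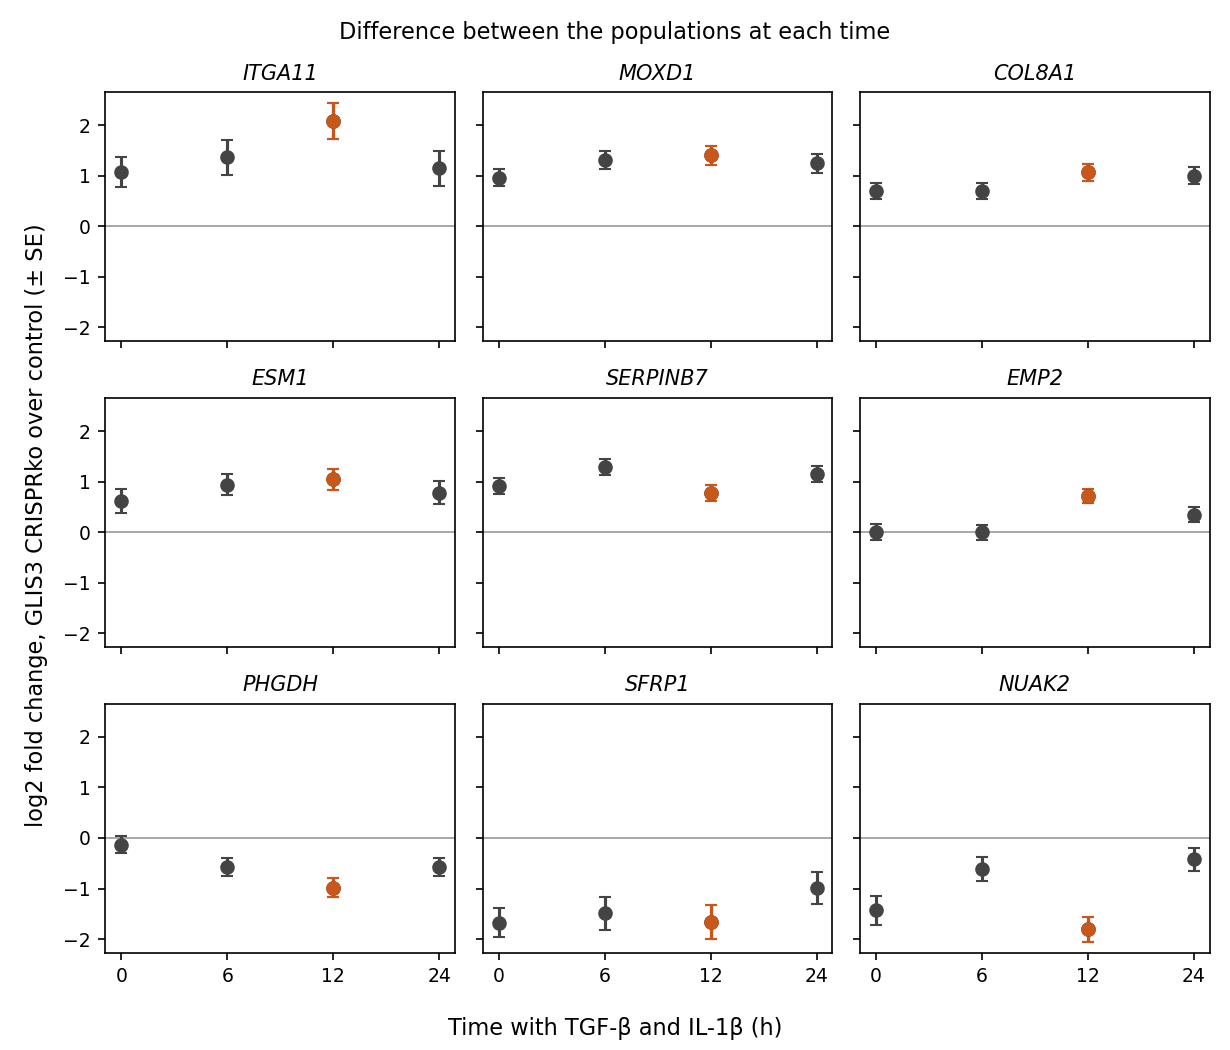
Log2 fold change of GLIS3 CRISPRko over control (± SE) at 0, 6, 12 and 24 h of cytokines for the 9 genes called at 12 h, with 12 h in orange. MOXD1 lies between 0.96 and 1.40 at all 4 times, while EMP2 lies at 0.01 and -0.01 at 0 and 6 h and at 0.72 at 12 h.

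Most of the 250 genes called over the other times had the same sign at 12 h, without passing the test there. Of the 165 that were higher, 140 had a log2 fold change above 0 at 12 h and 74 had groups that did not overlap in the same direction (7.69% of all genes tested). Of the 85 that were lower, 70 were below 0 at 12 h and 30 did not overlap in that direction (7.49% of all genes tested). In the opposite direction, 5 of the 250 did not overlap. Their median log2 fold change at 12 h was 0.34 for the higher genes and -0.32 for the lower ones, and 8 of the 250 were called at 12 h. The choice of genes raises their values at the times it used, so sizes at 12 h and at those times are given side by side only. Decorin (DCN), a proteoglycan that binds collagen and TGF-β, was at 43.4, 27.5 and 33 CPM in control and 22.4, 12.6 and 16.4 CPM in GLIS3 CRISPRko at 12 h. Its log2 fold change was -1.01 (SE 0.24, edgeR adjusted p = 0.105) at 12 h and -1.39 (SE 0.14, edgeR adjusted p = 5.96e-08) over the other times. TGFBI, an adhesive matrix protein induced by TGF-β, was at -0.54 (SE 0.24, edgeR adjusted p = 0.565) at 12 h and -1.23 over the other times. Its 12 h groups overlapped, since control replicate 1 held 272 CPM and the other controls 536 and 557 CPM, while GLIS3 CRISPRko held 284 to 334 CPM.

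**Figure D4:**
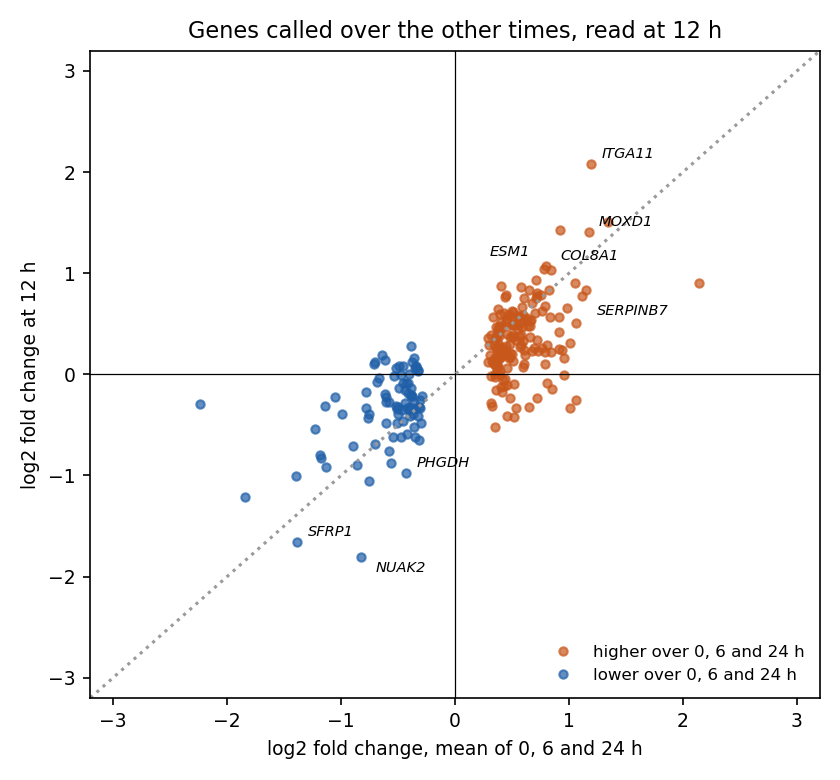
Log2 fold change at 12 h against the mean log2 fold change at 0, 6 and 24 h for the genes called over those 3 times (orange, higher; blue, lower). The dotted line marks equal values, 1 gene lies outside the axes, and 210 of the 250 genes have the same sign at 12 h.

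In the CRISPRa arm at 12 h, titles and descriptions name opposite groups, so the libraries were grouped by their descriptions, VP64_A and VP64_Ctrl. GLIS3 was at 31.1, 20.7 and 16.6 CPM in the VP64_A libraries and 3.55, 3.47 and 3.13 CPM in the VP64_Ctrl libraries. Between them 260 genes rose (2.37% of 10980 genes tested) and 213 fell (1.94%). Of the 9 genes called in the knockout comparison, 7 had the opposite sign in VP64_A and 5 of these were called there. COL8A1, MOXD1 and SERPINB7 fell by 1.75 (SE 0.20), 1.37 (SE 0.23) and 1.15 (SE 0.16) on the log2 scale, and NUAK2 and PHGDH rose by 0.88 (SE 0.22) and 0.68 (SE 0.15). COL8A1, for example, was at 43.2, 36.3 and 35.2 CPM in VP64_Ctrl and 9.98, 10.5 and 13.6 CPM in VP64_A. ITGA11 went the same way in both comparisons, with a log2 fold change of 3.80 (SE 0.31, edgeR adjusted p = 2.36e-10) in VP64_A, where it was at 26.9, 27.1 and 39.2 CPM against 1.18, 2.92 and 2.56 CPM. SFRP1 was at -1.02 (SE 0.47) there and was not called.

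The 10 genes next in order of p whose libraries did not overlap had adjusted p from 0.0601 to 0.105 in edgeR. DESeq2 called all 10 (adjusted p 0.0103 to 0.0439). Of these, 4 were higher in GLIS3 CRISPRko. LINC00152, a non-coding RNA, was at 117, 116 and 109 CPM in control and 241, 200.2 and 185 CPM in GLIS3 CRISPRko, a log2 fold change of 0.88 (SE 0.19). RGS16, a regulator of G-protein signalling, was at 27.6, 18.6 and 17 CPM against 48.9, 42.8 and 54.8 CPM (1.21, SE 0.26). The small heat-shock protein gene HSPB8 and the proton-pump subunit gene ATP6V1E1 were at 0.80 (SE 0.18) and 0.62 (SE 0.14).

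The 6 lower genes included matrix and amino-acid genes. COL6A1, a chain of type VI collagen, the beaded filament that anchors cells to the matrix, was at 138, 136 and 163 CPM in control and 74.4, 87.0 and 96.3 CPM in GLIS3 CRISPRko. Its groups did not overlap, and its log2 fold change was -0.76 (SE 0.17, edgeR adjusted p = 0.0738). Fibulin-2 (FBLN2), a matrix glycoprotein, was at 111, 97.5 and 86.0 CPM against 44.2, 58.6 and 58.2 CPM (-0.87, SE 0.20). PSAT1, the enzyme that follows PHGDH in serine synthesis, was at 18.8, 30.4 and 25.4 CPM against 13.9, 15.4 and 10.2 CPM (-0.90, SE 0.21). DCN, described above, EEF2K, the kinase that slows translation elongation, at -1.13 (SE 0.26), and ANP32E, a histone chaperone, at -0.65 (SE 0.15), completed them.

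COL6A2 and COL6A3, the other type VI collagen chains tested, did not pass in edgeR or DESeq2. COL6A2 was at 65.1, 89.6 and 63.8 CPM in control and 31.9, 66.3 and 36.3 CPM in GLIS3 CRISPRko, with overlapping groups and a log2 fold change of -0.69 (SE 0.21, edgeR adjusted p = 0.240). COL6A3 was at 892, 1020 and 1144 CPM against 748, 858 and 717 CPM, without overlap, a log2 fold change of -0.40 (SE 0.21, edgeR adjusted p = 0.675). Of the 14 non-fibrillar collagen genes tested, COL8A1 alone was called in edgeR and COL6A1 also in DESeq2, 5 were above 0 and 9 below, with a median of -0.15. The 7 fibrillar collagen genes tested had a median of -0.14 and none was called, while over all 10962 genes the median was -0.002. Of 20 matrix glycoprotein genes none was called in edgeR, FBLN2 (adjusted p = 0.0293) and DCN (adjusted p = 0.0439) passed in DESeq2, and the median was -0.02. Enzymes that process collagen (15 genes, median 0.06) and metalloproteinases with their inhibitors (12 genes, median 0.13) had no called gene either.

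Genes of inflammation-associated fibroblasts (IAFs) were taken from those that the study followed in its co-culture experiments, a list without IL11. All 30 were tested here, none was called in edgeR and COL6A1 passed in DESeq2 (adjusted p = 0.0115), 14 were above 0 and 16 below, and the median was -0.01. At an unadjusted p of 0.05, 1 was higher and 4 were lower, GLIS3, COL6A1, COL6A2 and TGFBI, against 4.0% and 3.68% of all genes. Over 0, 6 and 24 h the median of the 30 was -0.24, against -0.007 for all genes. Of the 30, 1 was called higher and 4 lower, with GLIS3 itself among the lower. Of all genes, 1.51% were called higher and 0.775% lower. The study's spatial panel marks 27 genes as GLIS3 signature, which is not the whole signature, and 25 of them were tested. The study drew the signature partly from the perturbed fibroblasts of this series, so it is no independent evidence of direction. None was called, 6 were lower and 1 higher at an unadjusted p of 0.05 (3.68% and 4.0% of all genes), and the median was -0.10. GLIS3, the gene that the guide targets, is itself in this list and is counted in the 6. Among the 6, clusterin (CLU), a secreted chaperone, was at 54.8, 60.2 and 60.2 CPM in control and 34, 44.6 and 35.2 CPM in GLIS3 CRISPRko (-0.62, SE 0.17, edgeR adjusted p = 0.185), and LTBP1, which holds latent TGF-β in the matrix, was at -0.62 (SE 0.20, edgeR adjusted p = 0.296).

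IL11 was not called. It was at 25.4, 10.8 and 15.6 CPM in control and 5.33, 8.56 and 12.0 CPM in GLIS3 CRISPRko, from 33 to 69 and 33 to 55 counts. The groups overlapped, and the log2 fold change was -1.02 (SE 0.36, edgeR adjusted p = 0.362). At 0, 6 and 24 h its log2 fold changes were -1.04 (SE 0.51), -0.04 (SE 0.35) and -0.08 (SE 0.38), and the 12 h value did not differ from these by test (edgeR adjusted p = 0.880). In control cells it rose from 2.37 ± 0.898 CPM (SD, n = 3) at 0 h to 17.3 ± 7.43 CPM at 12 h (log2 fold change 2.89, SE 0.41, edgeR adjusted p = 1.88e-06), and in GLIS3 CRISPRko cells from 1.13 ± 0.404 to 8.63 ± 3.34 CPM (2.92, SE 0.45, edgeR adjusted p = 5.29e-06). Of the 10 IL-6 family genes tested, 5 were above 0 and 5 below with a median of -0.06 and none was called. IL6 itself was at 1383, 992 and 1190.3 CPM in control and 1424, 1197 and 1427 CPM in GLIS3 CRISPRko (0.18, SE 0.28), and LIF was at -0.20 (SE 0.28).

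Other genes that the study followed were not called either. DDIT4, an inhibitor of mTORC1, was at 9.93, 17 and 13.1 CPM in control and 5.65, 7.0 and 8.88 CPM in GLIS3 CRISPRko (-0.92, SE 0.34, edgeR adjusted p = 0.431), and its groups did not overlap. The prostaglandin F receptor gene PTGFR was at -1.31 (SE 0.46, edgeR adjusted p = 0.362) from 6 to 21 counts in control and 8 to 14 in GLIS3 CRISPRko, with overlapping groups. FAP, a membrane protease of activated fibroblasts, and MMP2, a gelatinase, were at -0.18 (SE 0.14) and -0.17 (SE 0.26).

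No gene of the IL-1β response lists was called in edgeR. IL1B, the gene for IL-1β itself, was at 2230.3, 1202 and 1571 CPM in control and 3153, 3021 and 3354 CPM in GLIS3 CRISPRko. The groups did not overlap, and the log2 fold change was 0.93 (SE 0.28), which passed in DESeq2 (adjusted p = 0.0463) and not in edgeR (adjusted p = 0.262). ICAM1, an adhesion molecule for leukocytes, was at 161, 204 and 203 CPM against 311, 254 and 391 CPM (0.75, SE 0.20), and likewise passed in DESeq2 (adjusted p = 0.0485) and not in edgeR (adjusted p = 0.185). Of 19 NF-κB pathway genes tested, all of which rose with cytokines in control, none was called between the populations, 9 were above 0 and 10 below, and the median was -0.02. The 10 IL-1 pathway genes (median -0.05), 9 chemokine genes (median 0.03) and 7 AP-1 factor genes (median 0.05) had no called gene. Of the chemokines, 1 was higher and 2 were lower at an unadjusted p of 0.05, against 4.0% and 3.68% of all genes. CXCL5, which attracts neutrophils, was at 10.3, 5.23 and 6.53 CPM in control and 4.03, 5.13 and 1.04 CPM in GLIS3 CRISPRko, without overlap, from 4 to 33 counts per library (-1.04, SE 0.46, edgeR adjusted p = 0.574). Of 22 TGF-β pathway genes none was called, and the median was -0.17.

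**Figure D5:**
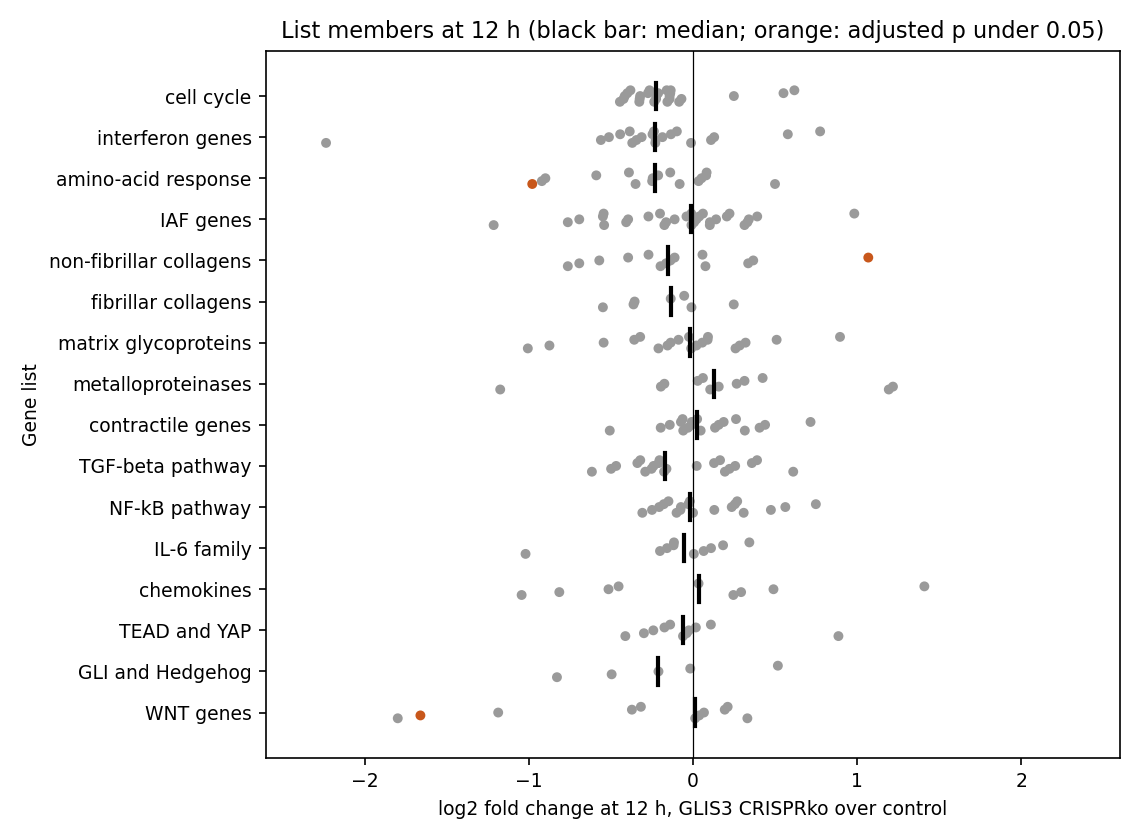
Log2 fold change at 12 h of the tested members of 16 gene lists, with the median of each list as a black bar and genes with an adjusted p under 0.05 in orange. The 1 member that lies outside the axis belongs to the TGF-β pathway and had no count in control. The medians run from -0.23 for the amino-acid response and interferon genes to 0.13 for the metalloproteinases.

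Of the 16 amino-acid response genes tested, PHGDH was called and 11 were below 0, with a median of -0.23 (-0.29 to -0.17 over 14 alternative analyses). At an unadjusted p of 0.05, 4 were lower (PHGDH, PSAT1, DDIT4 and TRIB3) and 1 was higher, against 3.68% and 4.0% of all genes. The higher one was STC2, a secreted stress hormone, at 0.50 (SE 0.15, edgeR adjusted p = 0.250). ATF4, the transcription factor that drives this response, was measured among the 16 and not called.

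Cell-cycle and interferon genes lay mostly below 0 without a member called in edgeR. Of 25 cell-cycle genes, 22 were below 0 with a median of -0.22 (-0.34 to -0.15 over 14 alternative analyses), 5 were lower at an unadjusted p of 0.05 (3.68% of all genes) and 10 had non-overlapping groups, lower in GLIS3 CRISPRko (7.49% of all genes). CDC20, which activates the ubiquitin ligase that ends mitosis, was at 264, 248 and 320 CPM in control and 202, 183 and 226 CPM in GLIS3 CRISPRko (-0.45, SE 0.20, edgeR adjusted p = 0.566), and MCM6, a subunit of the replicative helicase, was at -0.42 (SE 0.16, edgeR adjusted p = 0.448). CDKN1A, the inhibitor p21, was among the 3 above 0. Of 20 interferon genes, 16 were below 0 and the median was -0.23, which ran from -0.47 to 0.03 over the same alternatives and was above 0 only without control replicate 2. IFIT2, an interferon-induced RNA-binding protein, was at 6.62, 7.2 and 5.08 CPM in control and 2.26, 0.933 and 0.522 CPM in GLIS3 CRISPRko, a log2 fold change of -2.24 (SE 0.56) that passed in DESeq2 (adjusted p = 0.0101) and not in edgeR (adjusted p = 0.144). It rests on 2 to 22 counts per library.

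WNT, TEAD and Hedgehog genes gave SFRP1 and NUAK2, both lower (0.0274% of all genes), and no further call. Of 11 WNT genes tested, SFRP1 was called and the median was 0.01. At an unadjusted p of 0.05, 3 of the 11 were lower and none higher, against 3.68% and 4.0% of all genes. Groups did not overlap for 4 lower and 1 higher, against 7.49% and 7.69% of all genes. Of 8 genes that the study lists as TEAD1 targets, NUAK2 was called and the median was 0.05, and 12 genes listed as FOSL1 targets had no call and a median of 0.02. The 11 TEAD and YAP genes (median -0.06) and the 5 GLI and Hedgehog genes tested (median -0.21, 4 of the 13 listed at 0 in all 6 libraries) had no call. Contractile genes (19 tested, median 0.03), glycolysis and hypoxia genes (21, median 0.03), sterol synthesis genes (19, median 0.01) and metallothioneins (8, median 0.05) had none either, and nor did the 9 prostaglandin genes tested (median 0.10). Of the fibroblast markers, 14 were tested with a median of -0.05 and none called in edgeR. DCN and S100A4 (adjusted p = 0.0495) passed in DESeq2, with S100A4, a calcium-binding protein, at 188, 170.4 and 174 CPM in control and 394, 277 and 279 CPM in GLIS3 CRISPRko (0.83, SE 0.23, edgeR adjusted p = 0.187). The 4 markers of other cell types that could be tested were all above 0, with a median of 0.49 and none called, among them the lysosomal protein gene CD68 at 0.60 (SE 0.20, edgeR adjusted p = 0.32). Over 0, 6 and 24 h the median of the 4 was -0.05, with 1 called higher (1.51% of all genes) and none lower. Group means of CD68 at 0, 6 and 24 h were 19.2, 23.7 and 22.7 CPM in control. In GLIS3 CRISPRko they were 33.5, 32.3 and 42.1 CPM.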

How the data were processed

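RNA-seq was run on 24 CRISPRko and 24 CRISPRa libraries in a reverse time course, so that cells were collected at one time after 0, 6, 12 or 24 h of cytokines. The authors trimmed reads (Trim Galore), removed ribosomal reads (SortMeRNA), aligned them to GRCh38 (STAR) and quantified genes with Salmon, with versions and strand setting not given in the sources used here. They deposited estimated counts for 29744 genes, not normalized. The deposited TPM values were normalized for transcript length and library size by the authors.

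Estimated counts were rounded (6.38% were not whole) and the 24 CRISPRko libraries fitted in 8 groups with edgeR 4.0.16 (R 4.3.3), using filterByExpr with a minimum count of 10, TMM, the quasi-likelihood test and Benjamini-Hochberg adjustment over 10962 genes at 0.05. Standard errors were derived from the test statistic. VP64_A and VP64_Ctrl were fitted apart in the same way. Alternatives were DESeq2 1.42.0, its size factors, no filter, the 6 libraries alone, the replicate number as a block, limma 3.58.1 after adding 1 or 0.1 to TPM (genes with a mean TPM of at least 1, log2 scale), each 12 h library left out and, chosen after the depths were seen, 12 h counts thinned to 2614221.

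Genes were named by rule: GLIS3 and its tested neighbours, genes called at 12 h, the next 10 by p without overlap, genes the study followed, and in each gene list the members of lowest p and highest level. The comparison, lists and tests were chosen with earlier results of these data known. Same-numbered libraries did not deviate together at 12 h (r = 0.0181, 0.103 and 0.000826 over genes), so the numbers were not treated as pairs.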

Additional observations from a re-analysis of the deposited data

How the results depend on the processing

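The 9 genes called at 12 h became 43 with DESeq2, 81 without the filter on low counts, 38 in a fit of the 6 libraries alone, 5 and 2 with limma on log2(TPM + 1) and log2(TPM + 0.1), and 842 at an unadjusted p of 0.05. The DESeq2 calls held 8 of the 9, those without the filter and of the 6 libraries all 9, and those of each limma fit 1. Leaving out single libraries gave 4 to 8 calls: 8 without control replicate 1, 5 without control replicate 2, control replicate 3 or GLIS3 CRISPRko replicate 1, 7 without GLIS3 CRISPRko replicate 2 and 4 without GLIS3 CRISPRko replicate 3. These fits have fewer libraries, and for the other settings the cause was not tested. DESeq2 size factors gave 9 calls, thinning 9 (8 shared), and a minimum log2 fold change of 1 gave 6. The replicate block gave 11 calls with all 9 among them, and 236 in place of 250 over the other times. Those 250 became 78 and 72 with limma on log2(TPM + 1) and log2(TPM + 0.1), and 221 to 233 without single 12 h libraries. Without the filter 37 genes passed the test of 12 h against the other times, which could not be run on the 6 libraries alone and which no gene passed under the remaining alternatives. The 9 genes kept their direction in every alternative that gave a value. This follows in part from their choice, since the alternatives refit the same 12 h libraries or all but 1 of them. Of the genes named and not called, LIF ran from -0.354 to 0.0173 when single libraries were left out (above 0 without control replicate 2), and SBNO1 from -0.150 to 0.0520 (above 0 without control replicate 3), with 0.0734 after thinning. Depth limits low genes most, such as GLIS3 with 6 to 11 counts per library.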

Other observations

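Of the 43 genes that DESeq2 called at 12 h, 43 had libraries that did not overlap between the populations (7.69% of all genes tested did so in the higher direction and 7.49% in the lower), which follows in part from the call itself. The 5 genes below were chosen after their values were seen. HBEGF, a growth factor of the EGF family, was at 25, 23.9 and 20.3 CPM in control and 41.5, 41.5 and 39.9 CPM in GLIS3 CRISPRko, a log2 fold change of 0.83 (SE 0.20, edgeR adjusted p = 0.128) against 0.13 over 0, 6 and 24 h. KLF6, a zinc-finger transcription factor, was at 141, 141 and 129 CPM against 230.4, 191 and 211 CPM (0.62, SE 0.16) and at 0.03 over the other times. Neither difference between 12 h and the other times passed the test. PRDX6, an antioxidant enzyme, was at 568, 503 and 668 CPM against 1268, 868 and 1027 CPM (0.86, SE 0.24), and was called over the other times at 0.58 (edgeR adjusted p = 0.0196). Cathepsin K (CTSK), a collagen-degrading protease, was at 222, 193 and 240.4 CPM against 312, 277 and 374 CPM (0.55, SE 0.17), and was called over the other times at 0.54 (edgeR adjusted p = 0.00109). ATP6V0E1, a subunit of the proton pump that acidifies lysosomes, was at 166, 161 and 161 CPM against 280.3, 239.9 and 244 CPM (0.64, SE 0.16), and was called over the other times at 0.38 (edgeR adjusted p = 0.0218).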
